A study of Sus scrofa with 4 samples.

Results

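The genes described here encode the ligands and receptors of the classical axon guidance families: semaphorins, plexins, neuropilins, Slits, Robos, netrins, UNC5 receptors, ephrins and Eph receptors. They were taken by the form of the gene name, with earlier results of these data known. In the count tables, 66 of the 29263 genes belong to them. The cells came from lungs of pigs with the genotype LGR5-H2B-GFP knock-in, in which green fluorescent protein fused to a histone reports transcription of LGR5, and were dissociated with enzymes and sorted by fluorescence. The bright fraction (GFP-HI) and the fraction without fluorescence (GFP-NEG) were each sequenced in 2 biological replicates, numbered 1 and 2. All 4 libraries carry the same knock-in and no treatment is named. The protocol covers adult and fetal lung together and antibodies to EpCAM and NGFR that may have been used. The deposited comparison is named for adult pigs, and no antibody gate is given for these libraries, so that GFP-NEG is defined only by its lack of fluorescence and can hold any other cell type of the lung. LGR5, a receptor that amplifies Wnt signalling, was at 146 and 152 counts per 1e6 scaled library counts (CPM) in GFP-HI and at 1.55 and 0.767 CPM in GFP-NEG.

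Guidance molecules steer the tips of growing axons by attraction and repulsion, and outside the nervous system the same molecules pattern vessels, branching epithelium and mesenchyme. Secreted class 3 semaphorins bind a neuropilin that signals through a plexin, whereas most membrane semaphorins bind plexins directly. Slits are secreted ligands of Robo receptors, netrins bind DCC, neogenin and UNC5 receptors, and membrane-bound ephrins signal to Eph receptor kinases on a touching cell. In the lung, semaphorins with neuropilin-1 and Slits with Robos are known from airway branching and vessel growth.

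The GFP-HI libraries held 24200550 and 24689986 counts and the GFP-NEG libraries 6292253 and 7045652, so 1 count was worth 0.0453 to 0.0496 CPM in GFP-HI and 0.110 to 0.155 CPM in GFP-NEG. The summed CPM of 14 fibroblast markers was 98300 and 92298 in GFP-HI against 31465 and 10359 in GFP-NEG, and 10 of the 14 were called higher in GFP-HI. In the opposite direction, 11 of 15 leukocyte markers and 10 of 13 endothelial markers were lower in GFP-HI, with sums of 319 and 480 against 1930 and 2848 CPM for leukocytes and of 231 and 231 against 1529 and 632 CPM for endothelium. Their part in the differences below was not tested. In bulk libraries such as these, fewer cells of a type and less RNA per cell cannot be told apart. Of 11 markers of peripheral glia and neurons in the tables, only 6 had enough counts to be tested. NCAM1 was called higher, GFAP lower and 4 were not called.

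Of the 66 guidance genes, 64 had enough counts to be tested, and 14 were higher and 16 lower in GFP-HI. The test was edgeR's quasi-likelihood test with Benjamini-Hochberg adjustment over all 19682 tested genes, and a gene was called at an adjusted p under 0.05. Over all tested genes, 8.35% were called higher and 27.6% lower by the same rule, beside 21.9% and 25.0% of the tested guidance genes. The median log2 fold change was 0.38 over the guidance genes and -0.25 over all tested genes. Each SE below was derived from the edgeR test, as the absolute log2 fold change over the square root of its F value. It rests on spread pooled over genes and does not measure the spread of that gene's own libraries. The fractions did not overlap for 25 guidance genes with GFP-HI above and 20 with GFP-HI below, where the shares over all tested genes were 27.7% and 42%. The 14 higher genes were SEMA3A, SEMA3F, SEMA3G, SEMA4G, SEMA5A, NRP1, PLXNA1, PLXNA2, ROBO1, ROBO2, NTN4, EPHA1, EPHA4 and EPHB3.

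The lower calls fell into 2 levels of expression, a division made after the values were seen. Below 5 CPM in every library stood 17 guidance genes, of which 15 were tested, 8 were called lower and 0 higher. These 8 passed the filter on low counts through GFP-NEG alone, so that they could be called only lower, and their number supports no statement on the guidance genes. Among all tested genes at that level 50.3% were called lower and 0.171% higher. The other 49 guidance genes reached 5 CPM or more in at least 1 library, and of these 14 were called higher and 8 lower. Over all tested genes at that level 11.3% were higher and 19.3% lower. The 8 lower genes at this level were SEMA4A, SEMA4D, SEMA6B, SEMA7A, PLXNC1, SLIT2, ROBO4 and EPHB6.

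**Figure D1:**
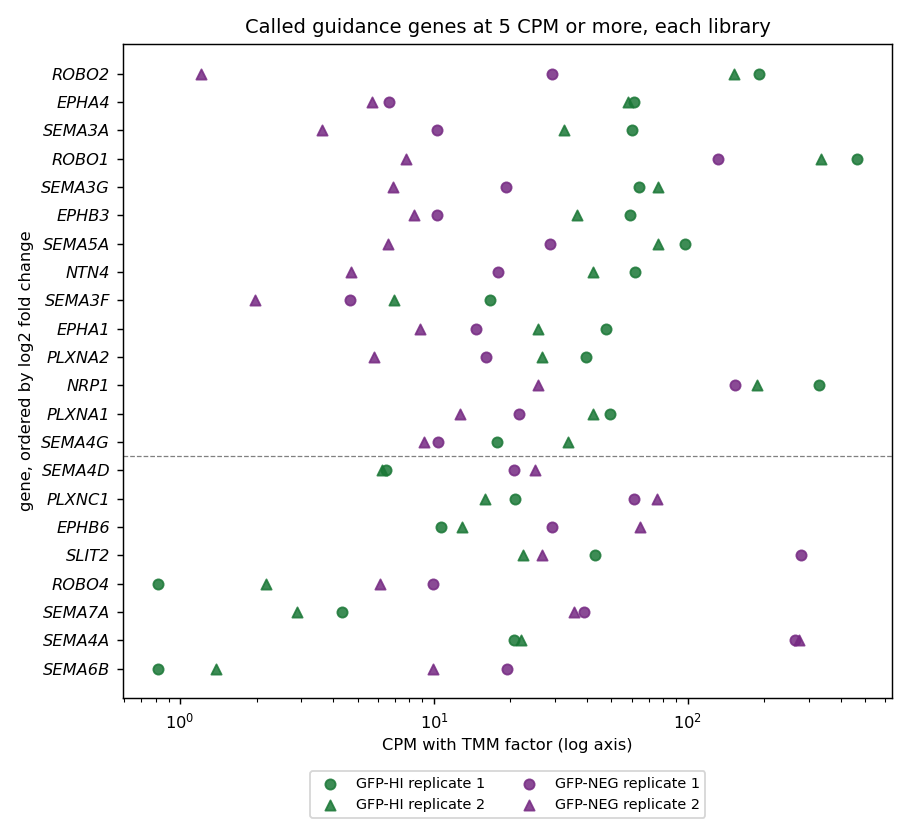
Level of each of the 22 called guidance genes that reached 5 CPM in a library, in CPM on a log axis, with 1 point per library; genes above the dashed line were called higher in GFP-HI and those below it lower. Both green GFP-HI points lie to the right of both purple GFP-NEG points for all 14 higher genes, and SLIT2 is the only lower gene of the 8 whose fractions overlap.

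Among the class 3 semaphorins, secreted ligands of neuropilin and plexin complexes, SEMA3A, SEMA3G and SEMA3F rose in GFP-HI and the other 4 genes were not called. SEMA3A, a classical repellent cue, was at 60.5 and 32.6 CPM in GFP-HI and at 10.2 and 3.62 CPM in GFP-NEG. The log2 fold change of 2.76 ± 0.57 (SE) had an adjusted p of 3.4e-05 in edgeR. SEMA3G, which is best known from vessel walls, was at 64.1 and 76.4 CPM against 19.3 and 6.91 CPM, a log2 fold change of 2.43 ± 0.54 (SE; adjusted p of 1.1e-04, edgeR). SEMA3F, a ligand that prefers neuropilin-2, was lower throughout, with 16.6 and 6.94 CPM against 4.66 and 1.97 CPM. Its log2 fold change of 1.84 ± 0.77 (SE) lay just within the threshold (adjusted p of 0.049, edgeR), and the call was lost when the libraries were scaled by another method or tested with DESeq2. For each of these 3 genes the fractions were fully apart.

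SEMA3C, SEMA3D and SEMA3E overlapped between the fractions, with GFP-NEG replicate 1 above at least 1 GFP-HI library for each. SEMA3C, a ligand known from outflow tract and lung development, was at 113 and 104 CPM in GFP-HI, at 142 CPM in GFP-NEG replicate 1 and at 13.2 CPM in GFP-NEG replicate 2. Its log2 fold change was 0.49 (adjusted p of 0.52, edgeR), and it was 3.10 (adjusted p of 0.0028) without GFP-NEG replicate 1. SEMA3D was at 33.6 and 41.4 CPM against 39.7 and 17.0 CPM. SEMA3E, the ligand that binds PLXND1 without a neuropilin, ranged from 1.75 to 19.6 CPM with both replicate 1 libraries above both replicate 2 libraries. SEMA3B, at 9.74 and 10.9 CPM against 6.37 and 2.52 CPM, was fully apart but not called (adjusted p of 0.22, edgeR). In the RefSeq annotation of Sscrofa11.1, SEMA3D, SEMA3A and SEMA3E are direct neighbours among protein-coding genes, and only SEMA3A of these 3 was called.

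The 13 semaphorins of classes 4 to 7, which are held at the membrane, divided into 2 genes that rose, 4 that fell and 7 that were not called. SEMA5A, a transmembrane protein with thrombospondin repeats, was at 97.0 and 76.1 CPM in GFP-HI and at 28.6 and 6.58 CPM in GFP-NEG, which gave a log2 fold change of 2.31 ± 0.54 (SE; adjusted p of 1.8e-04, edgeR). SEMA4G was at 17.8 and 33.6 CPM against 10.4 and 9.10 CPM. Its log2 fold change of 1.40 ± 0.58 (SE; adjusted p of 0.046, edgeR) kept its call in only 3 of the 12 alternative settings.

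The fall of SEMA4A was among the best replicated differences of the family. SEMA4A, which is known for costimulation of T cells, was at 20.6 and 21.9 CPM in GFP-HI and at 264 and 273 CPM in GFP-NEG. This was 12.6-fold lower in GFP-HI, or -3.66 ± 0.65 (SE) on the log2 scale (adjusted p of 8.7e-07, edgeR). SEMA7A, the semaphorin anchored by a glycolipid and also known from leukocytes, was at 4.35 and 2.88 CPM against 39.1 and 35.6 CPM, with a log2 fold change of -3.37 ± 0.61 (SE; adjusted p of 1.5e-06, edgeR). SEMA4D, or CD100, a leukocyte ligand of PLXNB1, was at 6.48 and 6.25 CPM against 20.7 and 24.9 CPM, with a log2 fold change of -1.84 ± 0.61 (SE; adjusted p of 0.010, edgeR). SEMA6B was at 0.816 and 1.39 CPM against 19.4 and 9.87 CPM, a log2 fold change of -3.72 ± 0.83 (SE; adjusted p of 1.0e-04, edgeR). The ratio of GFP-NEG replicate 1 to GFP-NEG replicate 2 was between 0.830 and 1.10 for SEMA4A, SEMA4D and SEMA7A. PTPRC, the pan-leukocyte gene for CD45, was at 45.9 and 121 CPM in GFP-HI and at 687 and 1214 CPM in GFP-NEG. The part of leukocytes in the lower semaphorin levels was not tested.

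The remaining membrane semaphorins at 10 CPM or more were closer between the fractions. SEMA4B was at 25.9 and 17.7 CPM in GFP-HI and at 36.02 and 35.0 CPM in GFP-NEG. SEMA4F was at 28.1 and 22.3 CPM against 13.5 and 18.0 CPM, and SEMA6D at 34.7 and 31.98 CPM against 19.4 and 22.7 CPM. None of these 3 overlapped, yet none was called (adjusted p from 0.32 to 0.37, edgeR). SEMA6A overlapped, at 36.3 and 15.1 CPM against 28.3 and 17.5 CPM. SEMA4C and SEMA6C, at no more than 12.3 CPM, overlapped as well, and SEMA5B stayed below 5 CPM in every library.

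Receptors for class 3 semaphorins rose in part. NRP1, neuropilin-1, which also binds VEGF, was at 329 and 187 CPM in GFP-HI and at 153 and 25.7 CPM in GFP-NEG. The log2 fold change of 1.53 ± 0.62 (SE) was called (adjusted p of 0.038, edgeR), but the call was lost in 8 of 12 alternatives. The value was 3.38 without GFP-NEG replicate 1 and 0.72 (adjusted p of 0.75) without GFP-NEG replicate 2. NRP2 was at 113 and 69.6 CPM against 69.6 and 38.0 CPM, with the lower GFP-HI library level with the higher GFP-NEG library, and was not called (adjusted p of 0.27, edgeR).

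Of the 8 plexins named in the tables, PLXNA1 and PLXNA2 rose, PLXNC1 and PLXNB3 fell and 4 were not called. PLXNB3, with 3 against 18 counts, lost its call in DESeq2 (adjusted p of 0.16), with no filter (0.15) and with the replicate block (0.17). PLXNA1 was at 49.4 and 42.1 CPM in GFP-HI and at 21.6 and 12.6 CPM in GFP-NEG, and PLXNA2 was at 39.8 and 26.7 CPM against 16.0 and 5.81 CPM. These type A plexins are the partners of neuropilins, and both were fully apart between the fractions. Their log2 fold changes were 1.42 ± 0.53 and 1.62 ± 0.56 (SE; adjusted p of 0.024 and 0.014, edgeR). With library size alone as the scaling they were 1.04 and 1.28 (adjusted p of 0.13 and 0.079). Without GFP-NEG replicate 2 they were 1.05 and 1.02 (adjusted p of 0.51 and 0.53), and without GFP-NEG replicate 1 the value of PLXNA2 was 2.57.

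PLXNC1, the receptor of SEMA7A, fell together with its ligand. It was at 20.9 and 15.9 CPM in GFP-HI and at 61.5 and 75.6 CPM in GFP-NEG, which gave a log2 fold change of -1.90 ± 0.53 (SE; adjusted p of 0.0016, edgeR). PLXND1, which is best known from endothelium, was at 65.6 and 49.3 CPM against 45.3 and 55.0 CPM and did not separate the fractions. PLXNB1, the receptor of SEMA4D, was at 23.3 and 15.4 CPM against 14.1 and 12.2 CPM and was not called (adjusted p of 0.49, edgeR). PLXNA3 and PLXNA4 overlapped, with their highest libraries at 14.0 and 15.1 CPM.

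A ninth plexin carries only an Ensembl identifier in the tables and was found through the gene name table provided. PLXNB2, at 374 and 224 CPM in GFP-HI and at 139 and 42.5 CPM in GFP-NEG, had a log2 fold change of 1.72 ± 0.63 (SE; adjusted p of 0.021, edgeR). The value was 2.86 without GFP-NEG replicate 1 and 1.07 (adjusted p of 0.59) without GFP-NEG replicate 2. The call of PLXNB2 was lost in 6 of the 12 alternatives, among them library size alone (adjusted p of 0.050), the stricter filter (0.060), thinning (0.051) and leaving out either GFP-HI library (0.15 and 0.068). The same table added EFNA3, which was below 2 CPM in every library. With both included, 15 of 66 tested guidance genes were higher and 16 lower.

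The Robo receptors showed the largest rise and a division within the family. ROBO2 was at 191 and 151 CPM in GFP-HI, at 29.2 CPM in GFP-NEG replicate 1 and at 1.21 CPM in GFP-NEG replicate 2. Its log2 fold change of 3.50 ± 0.60 (SE; adjusted p of 4.2e-07, edgeR) was the largest rise among the 64 tested guidance genes. ROBO1 was at 465 and 335 CPM against 131 and 7.78 CPM, a log2 fold change of 2.53 ± 0.67 (SE; adjusted p of 8.6e-04, edgeR). Both GFP-HI libraries were above both GFP-NEG libraries for each gene, and ROBO1 and ROBO2 are direct neighbours in the RefSeq annotation of Sscrofa11.1.

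The GFP-NEG libraries were far apart for this pair, by 24.2-fold for ROBO2 and 16.8-fold for ROBO1. Without GFP-NEG replicate 1 the log2 fold changes of ROBO2 and ROBO1 were 7.19 and 5.73, and without GFP-NEG replicate 2 they were 2.51 (adjusted p of 0.041) and 1.57 (adjusted p of 0.37). Within replicate 1 the difference in log2(CPM + 0.5) was 2.69 for ROBO2 and 1.82 for ROBO1, and within replicate 2 it was 6.48 and 5.34. DESeq2 did not call ROBO2 (adjusted p of 0.096). In contrast, ROBO4, the Robo known from endothelium, fell. It was at 0.816 and 2.18 CPM in GFP-HI and at 9.94 and 6.14 CPM in GFP-NEG, and the log2 fold change was -2.42 ± 0.95 (SE; adjusted p of 0.032, edgeR). PECAM1, an endothelial marker, was at 59.8 and 83.3 CPM against 328 and 198 CPM. The part of endothelial cells in the fall of ROBO4 was not tested. ROBO3 had at most 8 counts in a library and was not tested.

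Neither SLIT2 nor SLIT3 was called higher beside ROBO1 and ROBO2. SLIT2 was at 42.9 and 22.4 CPM in GFP-HI, at 279 CPM in GFP-NEG replicate 1 and at 26.5 CPM in GFP-NEG replicate 2. It was called lower, with a log2 fold change of -2.22 ± 0.57 (SE; adjusted p of 5.3e-04, edgeR), although the fractions overlapped. The call was lost whichever library but GFP-NEG replicate 2 was left out. Without GFP-HI replicate 1 the value was -2.69 (adjusted p of 0.064) and without GFP-HI replicate 2 it was -1.80 (adjusted p of 0.20). Without GFP-NEG replicate 1 the value was 0.35 (adjusted p of 0.75), and with the replicate number as a block it was -1.48 (adjusted p of 0.056). Within replicate 1 the difference was -2.68 and within replicate 2 it was -0.24. SLIT3 was at 97.3 and 68.7 CPM against 146 and 25.0 CPM, with the GFP-HI libraries between the GFP-NEG libraries. Its log2 fold change was -0.04 (adjusted p of 0.96, edgeR). The difference of SLIT3 was -0.59 within replicate 1 and 1.44 within replicate 2. Its log2 fold change was 1.78 without GFP-NEG replicate 1 and -0.86 without GFP-NEG replicate 2. SLIT1 had at most 6 counts in a library and was not tested.

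**Figure D2:**
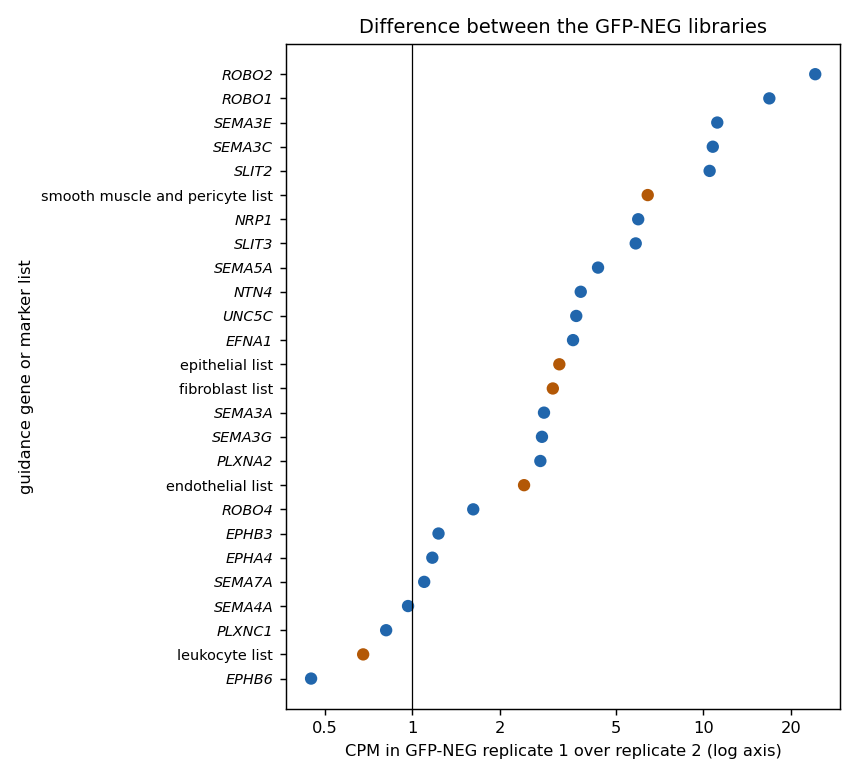
Ratio of the level in GFP-NEG replicate 1 to that in GFP-NEG replicate 2 (log axis) for 21 guidance genes in blue and for the summed CPM of 5 marker lists in orange; the vertical line marks equal levels. ROBO2 and ROBO1 lie farthest to the right at 24.2 and 16.8, and EPHA4, SEMA7A, SEMA4A and PLXNC1 lie near 1.

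Several guidance genes shared this gap between the GFP-NEG libraries. SEMA3E, SEMA3C and SLIT2 were 11.2-fold, 10.8-fold and 10.5-fold higher in GFP-NEG replicate 1, and NRP1 and SLIT3 were 5.97-fold and 5.85-fold higher. The summed fibroblast markers were 3.04-fold and the smooth muscle and pericyte markers 6.43-fold higher in the same library. Of single markers, TCF21 of lung fibroblasts was 20.8-fold, ACTA2 8.63-fold and PDGFRA 4.28-fold higher. Each lay above the ratio of its list sum, so these picks do not stand for the lists of 14 fibroblast and 13 smooth muscle and pericyte markers. The epithelial and endothelial sums were also higher there, by 3.20-fold and 2.42-fold, so the gap was not particular to mesenchymal markers. The leukocyte sum went the other way, with a ratio of 0.678. The part of these cell types in the gap was not tested. By contrast, the ratio was 1.17 for EPHA4 and 1.23 for EPHB3.

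Among the netrins, laminin-related proteins, NTN4 rose. NTN4, which binds laminin in basement membranes, was at 61.8 and 42.2 CPM in GFP-HI and at 17.9 and 4.71 CPM in GFP-NEG, which gave a log2 fold change of 2.21 ± 0.55 (SE; adjusted p of 3.3e-04, edgeR). The fractions were fully apart. Without GFP-NEG replicate 1 the value was 3.51, and without GFP-NEG replicate 2 it was 1.5 (adjusted p of 0.26). NTN1, the classical attractant, stayed at 0.997 and 1.69 CPM against 2.17 and 3.40 CPM and was not called, and NTN3 did not exceed 1.99 CPM.

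Of the 4 UNC5 receptors of netrins, 3 were not called and UNC5D, at very low level, was called lower. UNC5C, a repulsive netrin receptor, was at 34.8 and 31.8 CPM in GFP-HI and at 51.7 and 14.1 CPM in GFP-NEG, with the GFP-HI values between those of GFP-NEG. UNC5B, known from vessels, was at 10.9 and 6.45 CPM against 3.26 and 3.62 CPM and was not called (adjusted p of 0.21, edgeR). UNC5A did not exceed 3.18 CPM. Of the receptors outside the member families, NEO1 (neogenin) was called higher, at 123 and 81.9 CPM against 67.1 and 14.8 CPM (log2 fold change 1.32, adjusted p of 0.039, edgeR), but its value was 0.57 (adjusted p of 0.78) without GFP-NEG replicate 2. DCC had 0 counts in both GFP-HI libraries and 1.24 and 3.07 CPM in GFP-NEG. It was called lower (adjusted p of 1.8e-04, edgeR), but it passed the filter on low counts through GFP-NEG alone and could be called only lower. Among all tested genes below 5 CPM in every library, 50.3% were called lower.

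EPHA4 was the best supported rise among the Eph receptors, the receptor kinases for ephrins. It was at 61.1 and 58.1 CPM in GFP-HI and at 6.68 and 5.70 CPM in GFP-NEG, with little spread in either fraction. This was 9.64-fold higher, or 3.27 ± 0.57 (SE) on the log2 scale (adjusted p of 6.1e-07, edgeR). EPHA4, which binds ephrins of both classes, was the only one of the 14 higher genes to keep its call in all 12 alternative settings. EPHB3 was at 59.2 and 36.7 CPM against 10.2 and 8.33 CPM, with a log2 fold change of 2.37 ± 0.56 (SE; adjusted p of 1.8e-04, edgeR). EPHA1 was at 47.7 and 25.7 CPM against 14.6 and 8.77 CPM, with a log2 fold change of 1.66 ± 0.55 (SE; adjusted p of 0.010, edgeR). It was 1.29 and not called with library size alone (adjusted p of 0.067), and all 3 genes were fully apart between the fractions.

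EPHB6, an Eph receptor whose kinase domain is inactive and which is known from T cells, fell. It was at 10.7 and 12.9 CPM in GFP-HI and at 29.0 and 64.7 CPM in GFP-NEG, which gave a log2 fold change of -1.99 ± 0.54 (SE; adjusted p of 0.0012, edgeR). Without GFP-NEG replicate 2 the value was -1.34 (adjusted p of 0.27). CD3E, a T cell marker among the 15 leukocyte markers, was at 2.31 and 6.20 CPM against 35.1 and 112 CPM. The part of T cells in the fall of EPHB6 was not tested. EPHB4, known from venous endothelium, was at 23.1 and 14.1 CPM against 10.4 and 13.8 CPM and was not called. EPHA2, EPHA3, EPHA7 and EPHB2 were not called either (adjusted p from 0.082 to 0.55, edgeR). EPHA3 was at 9.42 and 25.8 CPM against 9.78 and 3.95 CPM, and its log2 fold change was 2.20 (adjusted p of 0.037) without GFP-NEG replicate 1.

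None of the 7 ephrin ligands named in the tables was called in edgeR. Of the 14 Eph receptors 3 rose and 6 fell, beside 8.35% and 27.6% of all tested genes. Of the 6, 5 were below 5 CPM and passed the filter through GFP-NEG alone, so that they could be called only lower. The difference between ligands and receptors was not tested. At an unadjusted p under 0.05 the count of ephrins was 0 in edgeR, and DESeq2 called 0. EFNB1 was at 70.7 and 52.2 CPM in GFP-HI and at 42.7 and 23.5 CPM in GFP-NEG, fully apart, with a log2 fold change of 0.89 ± 0.52 (SE; adjusted p of 0.17, edgeR). EFNA5 was at 21.5 and 32.6 CPM against 16.8 and 9.21 CPM, also fully apart, with a log2 fold change of 1.06 ± 0.56 (SE; adjusted p of 0.13, edgeR). EFNA1 crossed over between replicates, at 46.6 and 94.2 CPM against 95.3 and 26.7 CPM, so that GFP-HI was lower in replicate 1 and higher in replicate 2. EFNB2, which marks arterial endothelium, was at 7.75 and 6.45 CPM against 2.95 and 2.19 CPM. EFNA2, EFNA4 and EFNB3 stayed below 5 CPM in every library.

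**Figure D3:**
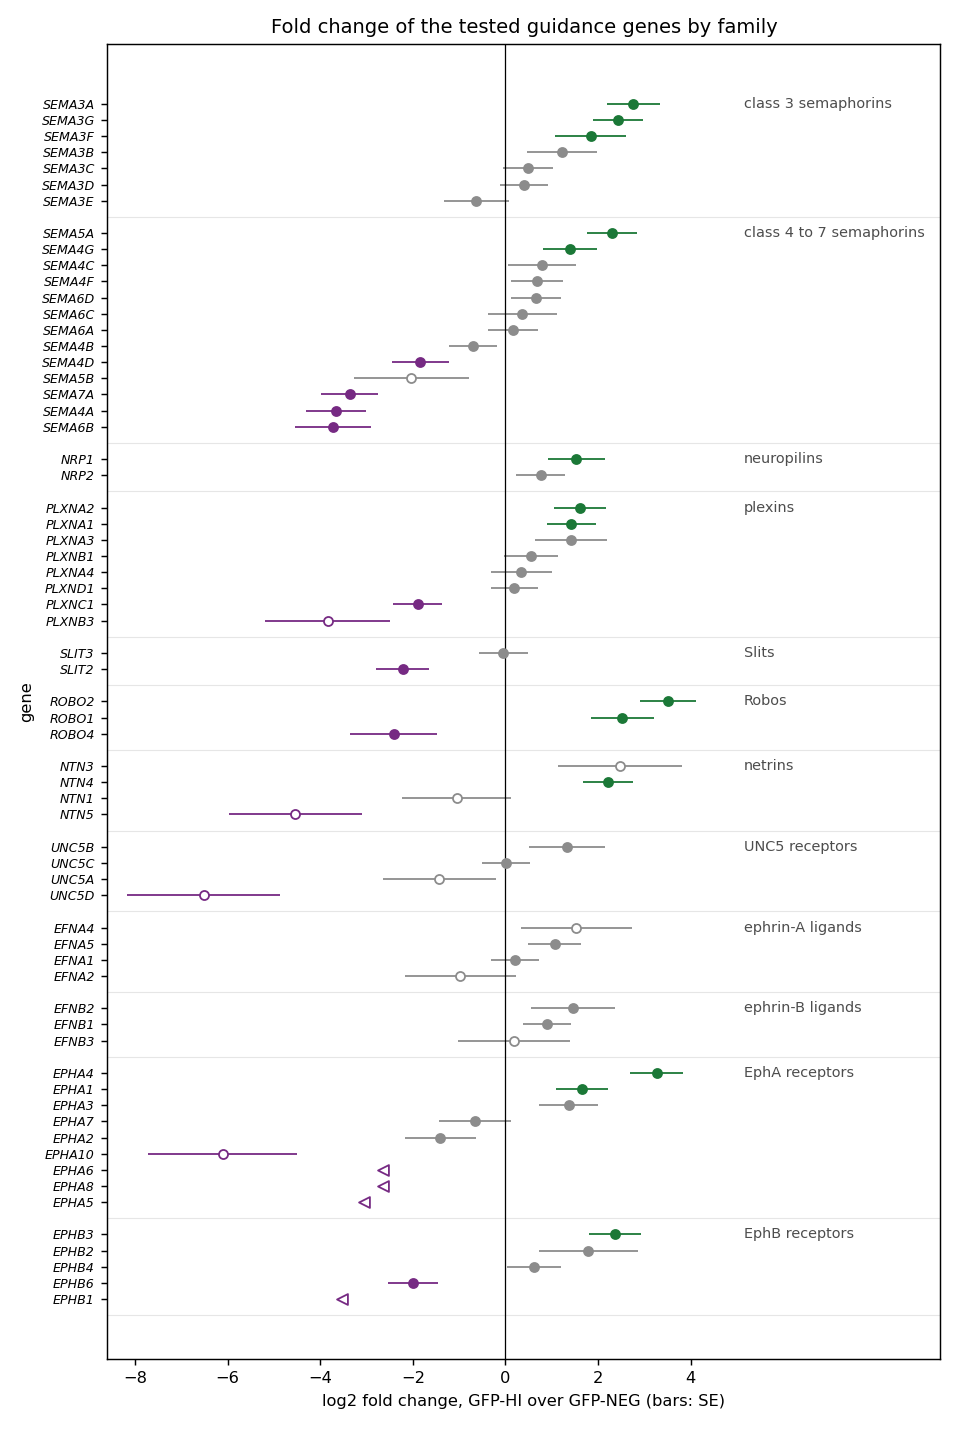
Fitted log2 fold change of GFP-HI over GFP-NEG for the 64 tested guidance genes, grouped by family, with bars for the SE; green marks genes called higher, purple called lower, grey not called, and open circles genes below 5 CPM in every library. Open triangles mark the 4 genes with 0 counts in both GFP-HI libraries, drawn at the least fold decrease that a limit of 3 counts allows. The Eph receptors span from the rise of EPHA4 at 3.27 to genes not detected in GFP-HI, and the ephrins lie between -0.98 and 1.53.

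The 8 lower calls below 5 CPM were EPHA5, EPHA6, EPHA8, EPHA10, EPHB1, UNC5D, NTN5 and PLXNB3. EPHA5, EPHA6, EPHA8 and EPHB1 had 0 counts in both GFP-HI libraries and 8 and 25, 6 and 20, 6 and 21, and 11 and 40 counts in GFP-NEG replicates 1 and 2. With the lower GFP-NEG library set against a limit of 3 counts per GFP-HI library, these 4 receptors were at least 8.35-fold, 6.26-fold, 6.26-fold and 11.48-fold lower in GFP-HI. EPHA10 had 1 count in GFP-HI against 37 in GFP-NEG over both libraries, a ratio of scaled levels of 0.00996 (95% exact interval 0.000246 to 0.0590, for counting error only). UNC5D had 1 against 49 (ratio of 0.00752, 0.000187 to 0.0439), PLXNB3 had 3 against 18 (0.0614, 0.0116 to 0.210) and NTN5 had 4 against 37 (0.0398, 0.0103 to 0.111). Their adjusted p-values lay between 1.3e-04 and 0.016 (edgeR). EPHB1 alone of the 8 kept its call in every setting in which it was tested, and without either GFP-HI library those of EPHA5, EPHA6, EPHA8, EPHA10, NTN5 and PLXNB3 were lost (adjusted p from 0.055 to 0.41). UNC5D lost its call without GFP-HI replicate 2 (adjusted p of 0.065), NTN5 also without either GFP-NEG library (adjusted p of 0.14 and 0.12) and PLXNB3 without GFP-NEG replicate 1 (adjusted p of 0.25).

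Most of these are genes best known from the nervous system, and their levels in GFP-NEG lay within the range of genes of unrelated tissues. Of 17 genes restricted to other tissues, the 15 other than APOA1 and GFAP lay between 0 and 7.13 CPM in GFP-NEG and between 0 and 6.80 CPM in GFP-HI. The median of the 17 tissue-restricted genes was 0.466 CPM in GFP-NEG replicate 1 and 1.43 CPM in GFP-NEG replicate 2. The lower calls below 5 CPM lay above this median in replicate 1, and all but PLXNB3 did so in replicate 2. The 17 low guidance genes reached at most 4.39 CPM in GFP-NEG and 4.71 CPM in GFP-HI. APOA1 and GFAP, left out of that range after their values were seen, reached 104 and 35.7 CPM in GFP-NEG. GFAP stood in this list and in that of glia and neurons, and its lower call was counted in both. It also entered the median of the 17 genes. Over all genes, 2651 of the 5433 lower calls (48.8%) were likewise below 5 CPM in every library. The part of background reads in these low calls was not tested.

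**Figure D4:**
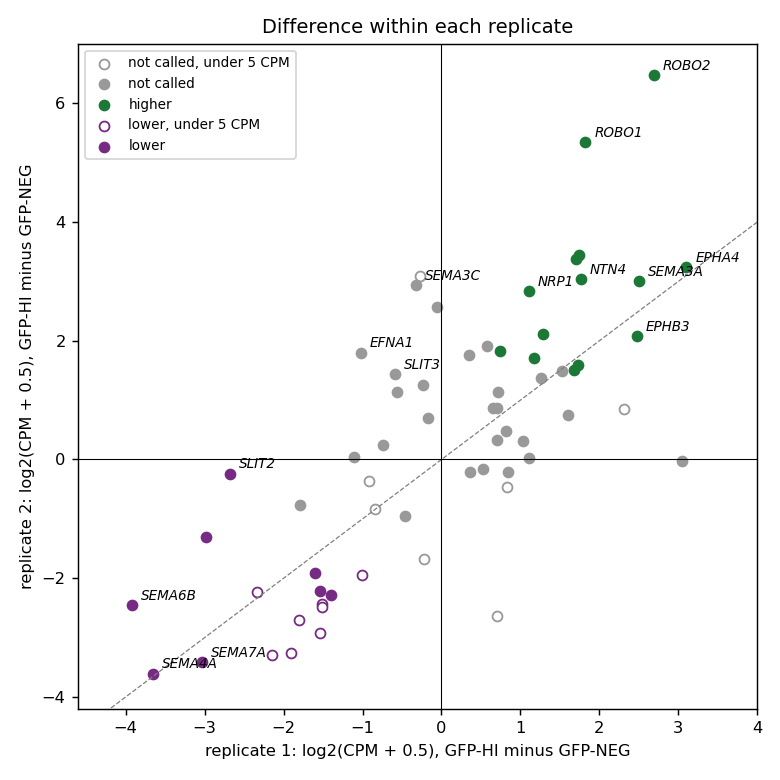
Difference between GFP-HI and GFP-NEG in log2(CPM + 0.5) within replicate 1 (horizontal axis) and within replicate 2 (vertical axis) for the 64 tested guidance genes, coloured by call, with open points below 5 CPM in every library; the dashed line marks equal differences. EPHA4 and SEMA4A lie near the line, ROBO1 and ROBO2 lie well above it, and SLIT2 is near 0 on the vertical axis at -0.24.

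The other genes of the guidance pathways moved in both directions. Of 44 further ligands, receptors and co-receptors in the tables, 39 were tested, 12 rose and 14 fell (over all tested genes 8.35% and 27.6%). Of the 14, 8 were below 5 CPM in every library, where 50.3% of all tested genes were called lower. Among those with a mean of at least 10 CPM, the largest rise was in PTPRD, a receptor tyrosine phosphatase, at 473 and 255 CPM in GFP-HI and at 76.7 and 10.3 CPM in GFP-NEG (log2 fold change 3.07, adjusted p of 7.7e-05, edgeR). Its relative PTPRS rose by 1.83 on the log2 scale. PTK7 and RYK, kinase-like receptors linked to Wnt signalling, rose by 2.64 and 2.38. RGMA and RGMB, membrane-anchored ligands of neogenin, rose by 2.42 and 1.74 (adjusted p of 5.9e-04 and 0.0056, edgeR), with both GFP-HI libraries above both GFP-NEG libraries. PLXDC2, SLITRK6 and LRRC4C rose by 1.77, 1.81 and 1.66, and MET, the receptor of hepatocyte growth factor, fell by 1.67. The MET call was lost without GFP-NEG replicate 1 (adjusted p of 0.73), and the calls of PTPRD, PTPRS, PTK7, RYK, RGMB, PLXDC2, SLITRK6 and LRRC4C were lost without GFP-NEG replicate 2 (adjusted p from 0.11 to 0.66). Without either GFP-HI library the calls of PTPRS, PLXDC2, MET and LRRC4C were lost (adjusted p from 0.052 to 0.24), and that of RGMB without GFP-HI replicate 2 (adjusted p of 0.066). SLITRK6 was at 12.6 CPM in GFP-HI replicate 1 and at 50.4 CPM in GFP-HI replicate 2, and without the latter its value was 0.56 (adjusted p of 0.64).

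Of 62 intracellular transducers in the tables, 59 were tested, 15 rose and 7 fell, beside the same shares over all tested genes. DPYSL3, a collapsin response mediator protein of the semaphorin pathway, was at 85.2 and 129 CPM in GFP-HI and at 15.4 and 3.18 CPM in GFP-NEG, which gave a log2 fold change of 3.55 ± 0.58 (SE; adjusted p of 6.6e-08, edgeR). SRGAP3, a GTPase-activating protein of the Slit and Robo pathway, was at 115 and 58.8 CPM against 23.0 and 13.3 CPM, a log2 fold change of 2.26. RND3 and RHOD, small GTPases that act on actin, rose by 2.33 and 2.57, and ARHGEF25 and PDZRN3 by 2.31 and 2.32. The Ena/VASP proteins, which extend actin filaments, were divided. ENAH was at 81.0 and 170 CPM against 47.0 and 11.07 CPM and rose by 2.12 on the log2 scale. VASP was at 66.1 and 31.4 CPM against 407 and 308 CPM and fell by 2.87, and EVL fell by 2.13. MICAL2, an actin-oxidising enzyme of a family that acts below plexins, fell by 3.19. RAC1, RHOA and CDC42, widely used small GTPases, overlapped between the fractions, with log2 fold changes between -0.04 and 0.31. Without GFP-HI replicate 2 the calls of VASP, RND3, ENAH, PDZRN3 and EVL were lost (adjusted p from 0.051 to 0.13), and without GFP-HI replicate 1 those of RHOD, ARHGEF25 and EVL (adjusted p from 0.050 to 0.068). The calls of SRGAP3, RHOD, RND3, ARHGEF25, PDZRN3, ENAH and EVL were lost without GFP-NEG replicate 2 (adjusted p from 0.058 to 0.41).

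Leaving out single libraries changed many of the calls, over all genes as well as among the guidance genes. Without GFP-NEG replicate 2 only EPHA4, ROBO2 and PLXNA3 were called higher, where the share over all tested genes was 1.23%, and the value of PLXNA3 was then 2.96 (adjusted p of 0.041). The values of the 12 other higher genes stayed above 0, from 0.72 for NRP1 to 2.19 for EPHB3, with adjusted p-values from 0.056 to 0.75. Without GFP-NEG replicate 1, 15 genes were called higher, beside 7.62% of all tested genes. SEMA3C and EPHA3 were gained in that setting and SEMA4G was lost (adjusted p of 0.12). Without GFP-HI replicate 1 the calls of EPHA1, NRP1, PLXNA1, PLXNA2, ROBO1 and SEMA3F were lost (adjusted p from 0.073 to 0.38), and 5.23% of all tested genes were called higher. Without GFP-HI replicate 2 those of NRP1, PLXNA1, ROBO1 and SEMA4G were lost (adjusted p from 0.055 to 0.34), and 3.03% of all tested genes were called higher.

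Among the lower genes above 5 CPM, SEMA4A, SEMA6B and SEMA7A kept their calls whichever library was left out. Over all tested genes the lower calls were then 13.2% and 12% without GFP-HI replicates 1 and 2, and 23.3% and 8.98% without GFP-NEG replicates 1 and 2. SEMA4D lost its call without either GFP-HI library or GFP-NEG replicate 2 (adjusted p from 0.090 to 0.13), and its value stayed between -1.74 and -1.72. PLXNC1 lost its call without GFP-HI replicate 2 (-1.62, adjusted p of 0.097) and without GFP-NEG replicate 2 (-1.78, adjusted p of 0.073). EPHB6 lost it without either GFP-HI library as well (adjusted p of 0.084 and 0.054). ROBO4 lost it without any library but GFP-NEG replicate 2, with values from -3.21 to -1.75 (adjusted p from 0.051 to 0.20).

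The split between higher and lower calls depended on the scaling. With library size alone in place of TMM factors, 8 guidance genes were higher and 16 lower, against shares over all tested genes of 4.51% and 29.1%, and the median log2 fold change of the guidance genes was -0.02 while that of all tested genes was -0.68. The share of higher among all calls over the tested genes went from 23.2% to 13.4%, and among the calls of guidance genes from 46.7% to 33.3%. Those 8 were SEMA3A, SEMA3G, SEMA5A, ROBO1, ROBO2, NTN4, EPHA4 and EPHB3. Of the 66 genes, 55 appear in the authors' deposited table, where 10 are higher and 8 lower at an adjusted p under 0.05, beside shares of 8.2% and 11.2% over all genes in that table. NRP1, ROBO2, SEMA3F and SEMA4G are not called in the authors' deposited table, with adjusted p-values between 0.075 and 0.096 (DESeq2). Their values there equal those of the DESeq2 setting used here, so they are not a separate result. The 8 genes that the deposited table calls lower are the lower genes above 5 CPM named here.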

How the data were processed

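Bulk RNA sequencing of 4 sorted cell libraries was used. Libraries were made with Nextera XT, per the labels' protocols. The authors deposited a table of gene counts for every library, made with featureCounts (Subread 1.5.2), per the submitters' processing notes. Aligner and strand setting are not given in the sources used here, so reads of antisense or overlapping genes cannot be told apart. The genome build is not stated either, beyond an annotation version in the name of the deposited comparison. The authors' deposited comparison table, made with DESeq2 1.37.6 per the same notes, gave their log2 fold changes and adjusted p-values. Its counts are identical to the single tables (0 differences), and its 4 normalized columns were not used, because the headings of 2 of them disagree with the counts beside them.

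The counts were tested across all genes with edgeR 4.0.16 (R 4.3.3; filterByExpr, TMM, glmQLFit and glmQLFTest, group as the only term), which kept 19682 of 29263 genes, with 64 of the 66 guidance genes. No row lacked a gene identifier (0 rows). CPM are counts over library size times TMM factor. The prior degrees of freedom were infinite, so a gene's own spread had little weight in its p-value and SE. The labels call the replicates biological. With 2 libraries a group, p-values measure the spread between these libraries pooled over genes, rather than that of the single gene. DESeq2 1.42.0, other scalings and filters, GFP-HI thinned to GFP-NEG depth, a replicate block and leaving out each library were the alternatives. Where a library was left out, the remaining one of its group was assumed to vary like the other group. Table headings name pig 1 and pig 2 for both fractions, and same-numbered libraries deviated together (r = 0.18 across genes). The procedure was tested on simulated data.

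Guidance genes that were called, or at 10 CPM or more in both libraries of a fraction, are named with every library's value; other members may be named without full statistics, and the values given for some of them were added after they were seen. Also named are, in each pathway list, up to 10 called genes with a mean of at least 10 CPM. NEO1, DCC, RAC1, RHOA and CDC42 were added for their role. Members and lists were chosen with earlier results of these data known. No mesothelial marker was tested (2 of 6 in the tables, at most 3.18 CPM summed), 4 of 13 tested epithelial markers were lower, 2 of 13 smooth muscle and pericyte markers higher and 4 lower, and 5 of 8 tested genes of unrelated tissues lower. Identifiers were matched to symbols with the gene name table provided (834 renamed).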

Additional observations from a re-analysis of the deposited data

How the results depend on the processing

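No guidance gene was called in opposite directions under any of the 12 alternatives. Of the 14 higher calls, 7 were kept in all 8 settings with 4 libraries (EPHA4, EPHB3, NTN4, ROBO1, SEMA3A, SEMA3G and SEMA5A). Of the 16 lower calls, 13 were kept in those of the 8 settings in which the gene was tested. Among these 13, EPHA5, EPHA6, EPHA8, EPHA10, EPHB1, NTN5 and UNC5D passed the filter through GFP-NEG alone and could be called only lower. EPHA5, EPHA6, EPHA8 and EPHA10 were not tested with the stricter filter or after thinning. The count of 13 therefore cannot be set against the 7 higher calls. The higher calls numbered 9 under upper-quartile scaling and 8 with library size alone, and the lower calls 10 after GFP-HI counts were thinned to the depth of GFP-NEG, where 54 of the 66 genes were tested. The median log2 fold change of the guidance genes was 0.35 under RLE scaling, 0.077 with upper quartiles, -0.019 with library size alone, 0.50 with the stricter filter, 0.34 in DESeq2 and 0.46 after thinning. With the replicate block it was 0.47, with 14 genes higher and 14 lower: SLIT2 and PLXNB3 lost their calls (adjusted p of 0.056 and 0.17), and no other guidance call changed. Among the co-receptors, 7 were higher with library size alone, and 8 were lower with the stricter filter and 7 after thinning; the cause of these shifts was not tested beyond the smaller number of genes tested under the last 2. When single libraries were left out, higher guidance calls ranged from 3 (without GFP-NEG replicate 2) to 15 (without GFP-NEG replicate 1), lower calls from 4 to 12 and the median from 0.37 to 0.74. Co-receptors called higher ranged from 1 to 12 and lower from 3 to 8, and transducers from 1 to 15 and from 3 to 7. SLIT2 ranged from -3.13 without GFP-NEG replicate 2 to a reversed 0.35 without GFP-NEG replicate 1. These fits have 1 residual degree of freedom, and the GFP-NEG depth, 3 counts of which are worth 0.329 to 0.466 CPM, limits what can be seen of low genes there.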
